A study of Mus musculus with 40 samples.

Results

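The cerebellum of CSB mice on a ketogenic diet (CSB KD, 5 libraries) was compared with that of CSB mice on a standard diet (CSB SD, 6 libraries). These 11 of the 40 libraries of the series were taken by title, and each column of the deposited table was matched to its title by library number. The 5 KD libraries carry the numbers 13, 18, 19, 43 and 44, and the 6 SD libraries the numbers 6, 8, 16, 26, 30 and 31. All mice were male, of the strain given as C57BL6, with the genotype given as CSB. The other groups, which share the fit, were WT SD (4 libraries), WT KD (4), INDY SD (6), INDY KD (6), DKO SD (4) and DKO KD (5) of the same strain and sex. The labels give neither the allele nor age, the composition or length of the diet, or whether libraries came from separate animals, so p-values measure the spread between libraries, which may be technical. The question was whether the ketogenic diet was accompanied by lower RNA of microglial and complement genes in CSB cerebellum.

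CSB is the protein encoded by Ercc6, an ATPase that helps the repair of transcription-blocking DNA damage, and its loss in people causes Cockayne syndrome. Microglia are the resident macrophages of the brain. At rest they carry receptors such as P2ry12 and Tmem119, and near damage or myelin debris many switch to a state marked by Cst7, Itgax, Clec7a and Gpnmb. Complement tags targets through C1q, C4 and C3 and is read by receptors on phagocytes. In brain, C1q comes mostly from microglia and C4 and C3 from glia, while most circulating complement proteins come from liver. A ketogenic diet, high in fat and low in carbohydrate, raises circulating ketone bodies, which brain cells can burn.

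Values are estimated read counts per gene normalised by the authors. Differences are log2(value + 1) of KD minus SD from limma, and a gene was called at an adjusted p under 0.05. In these units the sum over all genes ran from 24185878 to 26892567 in 10 of the 11 CSB libraries and was 32247186 in CSB KD 13, and since these sums follow normalisation the sequencing depth is unknown. CSB KD 13 had 25988 genes above 0, and the CSB SD libraries had 26839 to 27111. CSB KD 19, 43 and 44 also lay below the SD range, at 26638, 26589 and 26393, while CSB KD 18 had 27161. Pairs of CSB libraries correlated at a Pearson r of 0.956 to 0.983 across genes. The genotype check held in all 11 libraries. Gm6768, a pseudogene listed at 0 in 19 of the 20 WT and INDY libraries, read 941 to 1245 in the CSB libraries. Ercc6 RNA was still present, at 382 to 695, and differed by -0.03 between the diets (95% interval -0.30 to 0.24). Slc13a5, the citrate transporter gene also known as Indy, read 93.2 to 155 in the CSB libraries and at most 0.934 in the INDY and DKO libraries. The library labelled WT KD 25 went against its label, with Gm6768 at 1041 and Ercc6 at 633, so comparisons that use WT KD are also given without it. Cerebellar genes were present as the tissue label says: all 16 Purkinje and all 18 granule cell markers reached 10 in every CSB library.

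Several CSB libraries stood apart in mitochondrial RNA or in RNA of choroid plexus, liver, granule cells or myelin. The results below are read beside these values. CSB KD 13 had the highest share of mitochondrial RNA (14.2%, against 7.29% to 9.62% in CSB SD), and its choroid plexus level was 4.78, against 7.23 to 8.88 in CSB SD. A level here is the mean log2(value + 1) of a list in a library. CSB KD 19 had a choroid plexus level of 5.71. Transthyretin (Ttr), secreted by choroid plexus, read 23.9 in CSB KD 13 and 374 in CSB KD 19, but 6221 or more in each of the 6 SD libraries. Liver RNA was most abundant in CSB SD 6, at a level of 9.03, and stood at 2.35 to 6.87 in the other SD libraries and 1.76 to 5.52 in KD. The summed value of the 22 liver markers ran from 209 to 19580 in SD and from 160 to 1523 in KD, and 10 of the 22 were listed at 0 in at least 1 KD library. CSB SD 16 combined the lowest granule cell level (10.26, against 11.04 to 12.01 in the other SD libraries) with the highest myelin level (12.25, against 10.87 to 11.88). In bulk tissue, fewer cells of a type and less RNA per cell cannot be told apart.

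No gene was called between CSB KD and CSB SD: limma called 0 of 21367 genes (0%), with a smallest adjusted p of 0.43, and 732 genes (3.43%) had an unadjusted p under 0.05, 345 higher and 387 lower. The median over all genes was -0.00, and 50.3% of genes lay below 0 and 49.7% above. The microglial and complement genes are therefore described by their sizes and intervals, and none of them passed. A value that misses the threshold does not show that the diets were alike, and for 85.6% of all genes tested the 95% interval excluded a 2-fold reduction.

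The activated, disease-associated microglia list lay slightly below 0 on the ketogenic diet. Its 31 genes had a median of -0.19 and 29 of them lay below 0, but only 3 (Gpnmb, Igf1 and Axl) had an unadjusted p under 0.05 with a lower value, a direction and threshold that 1.81% of all genes met. For 22 of the 31 the interval excluded a 2-fold reduction. The level of the list was 9.64 ± 0.27 (SD, n = 6) in CSB SD and 9.39 ± 0.27 (n = 5) in CSB KD. By library it ran from 9.20 to 10.04 on SD, with CSB SD 30 lowest and CSB SD 16 highest. On KD it was 9.85 in CSB KD 13 and 9.29, 9.33, 9.28 and 9.18 in the other 4. Those 4 libraries thus lay below at least 5 of the 6 SD libraries, while CSB KD 13 lay above 5 of the 6. The median was -0.30 without CSB KD 13, -0.13 without CSB SD 16 and -0.12 without CSB KD 44.

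**Figure D1:**
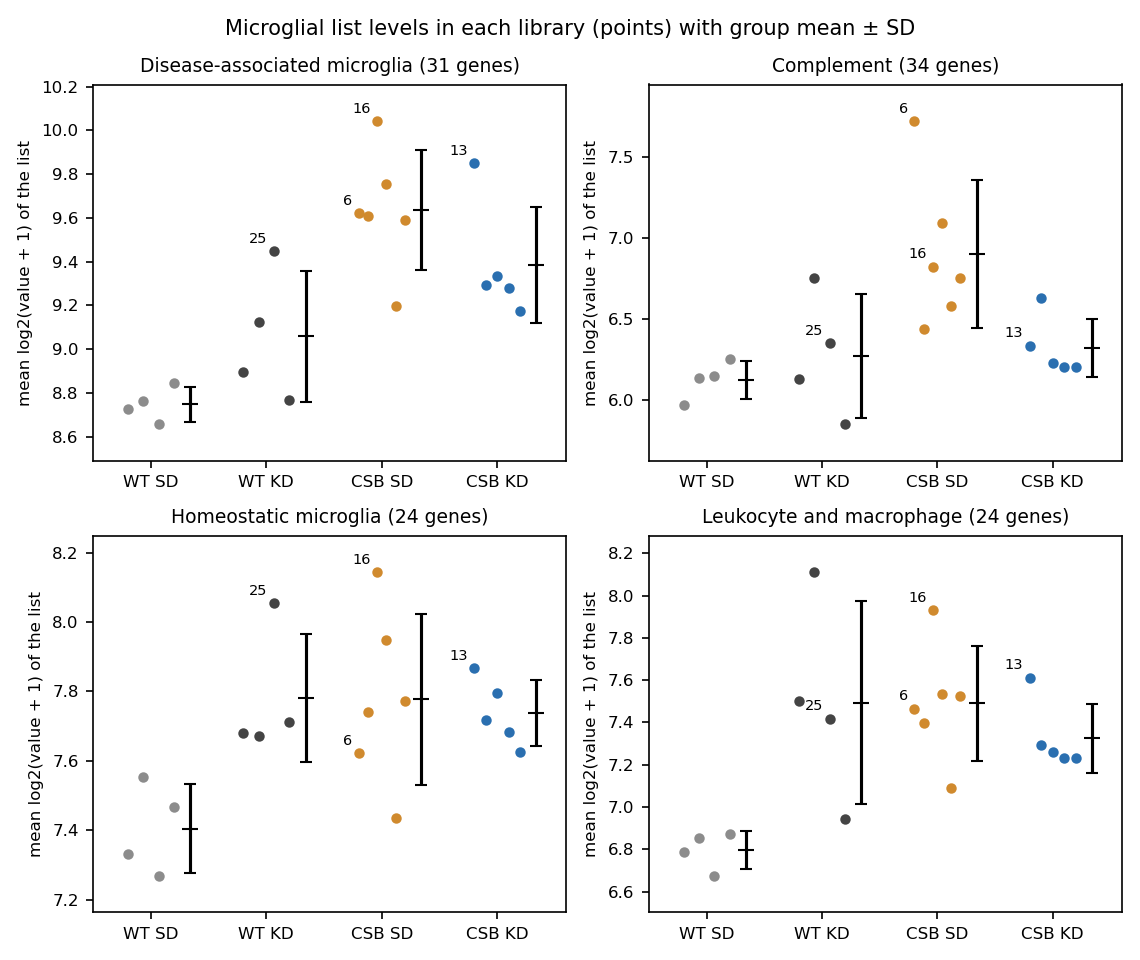
Level of 4 microglial and complement lists (y axis, mean log2(value + 1)) in each library of WT and CSB on SD or KD (points), with the group mean ± SD as black bars; numbers mark libraries that stand apart. The disease-associated list was at 9.64 in CSB SD, 9.39 in CSB KD and 8.75 in WT SD.

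Gpnmb (chromosome 6, 49036546 to 49070929 on GRCm38), a lysosomal glycoprotein of phagocytes, had the largest difference of this list. It ran from 238 through a median of 439 to 696 in SD, and read 383, 196.5, 184, 229 and 144 in KD libraries 13, 18, 19, 43 and 44. Only CSB KD 13 lay inside the SD range, and the 4 others lay below the lowest SD library. Gpnmb differed by -0.95 (SE 0.35, 95% interval -1.66 to -0.24, 1.93-fold lower), with an adjusted p of 0.984.

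Igf1 (chromosome 10, 87858265 to 87937042), a growth factor that activated microglia can secrete, did not overlap between the diets. It ran from 282 through a median of 380 to 434 in SD, and read 216, 274, 206, 211 and 235 in KD. The difference was -0.68 (SE 0.23, 95% interval -1.14 to -0.22, adjusted p = 0.984). Over all genes, every KD library lay below every SD library for 42 of 21367 (0.197%), and Igf1 was the 1 gene of the 31 to do so. Axl, a receptor that binds dying cells, differed by -0.24 (95% interval -0.41 to -0.07).

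Cst7, an inhibitor of lysosomal proteases, ran from 32.9 through 60.8 to 147 in SD and read 75.9, 36.2, 34.4, 51.9 and 32.3 in KD. Itgax, the integrin CD11c, ran from 96.8 through 141 to 226 in SD and read 183, 82.8, 96.5, 98.3 and 49.8 in KD. The groups overlapped for both genes, and in both CSB KD 13 was the highest KD library. The differences were -0.54 for Cst7 (95% interval -1.35 to 0.28) and -0.56 for Itgax (-1.32 to 0.19), so neither a 2-fold reduction nor no difference was excluded. Cst7 was at -0.30 without CSB SD 16 and Itgax at -0.34 without CSB KD 44. Clec7a, the dectin-1 receptor, differed by -0.35 (-1.03 to 0.33), by -0.22 without CSB KD 19 and by -0.61 without CSB KD 13, which read 353 where the other 4 KD libraries read 120 to 184.

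Cd68, a lysosomal membrane protein of macrophages, ran from 132 through 222 to 266 in SD and read 318, 154, 190, 171 and 161 in KD. The highest single value of Cd68 was thus a KD library and the others lay inside the SD range. Its difference was -0.14 (95% interval -0.54 to 0.26). The lipid receptor Trem2 differed by -0.14 (-0.57 to 0.29), its signalling adaptor Tyrobp by -0.24 (-0.69 to 0.20) and the lipid carrier Apoe by -0.12 (-0.35 to 0.10). For these 4 genes the interval excluded a 2-fold reduction. Single libraries moved them: Cd68, Trem2, Tyrobp and Apoe were at -0.32, -0.34, -0.47 and -0.20 without CSB KD 13, and at -0.08, -0.03, -0.15 and -0.07 without CSB SD 16. Lysozyme (Lyz2, -0.40), osteopontin (Spp1, -0.31) and the tetraspanin Cd63 (-0.25) also lay below 0, the first 2 with intervals that reached a 2-fold reduction.

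**Figure D2:**
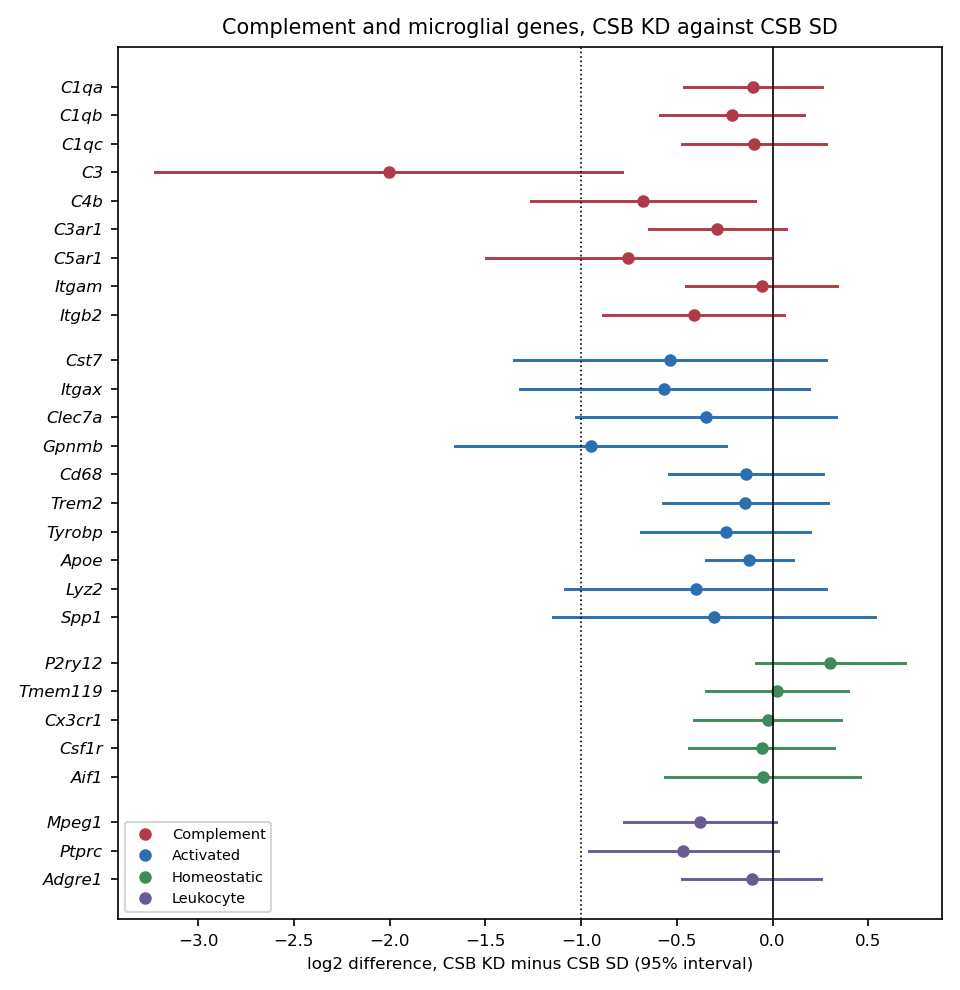
Log2 difference of CSB KD minus CSB SD (x axis) for 27 complement and microglial genes, as the estimate (point) and its 95% interval (line); the dotted line marks a 2-fold reduction. C3 stands farthest from 0, at -2.0, while P2ry12 is at 0.30.

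Complement genes had the lowest median of the microglial lists, -0.41 over 34 tested members, of which 30 lay below 0. Among the 34, 7 had a lower value at an unadjusted p under 0.05, against 1.81% of all genes. Of 38 listed genes, 4 (Cfd, C6, C7 and Vsig4) did not reach the filter. For 19 of the 34 the interval excluded a 2-fold reduction, and for the other 15 it did not. The level was 6.90 ± 0.46 in CSB SD and 6.32 ± 0.18 in CSB KD. By library it ran from 6.44 to 7.72 in SD, highest in CSB SD 6, and was 6.33, 6.63, 6.23, 6.20 and 6.20 in KD, so that only CSB KD 18 overlapped the SD range. When forebrain and liver levels were covariates, the complement median was -0.22.

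Transcripts of the C1q chains, which recognise targets, had differences of at most 0.21 in size. C1qa (chromosome 4, 136895917 to 136898803) ran from 680 through 967 to 1350 in SD and read 1331, 755, 1044, 776 and 741 in KD. The groups overlapped, and C1qa differed by -0.10 (95% interval -0.46 to 0.26). C1qb differed by -0.21 (-0.59 to 0.16) and C1qc by -0.10 (-0.47 to 0.28). For all 3 chains the interval excluded a 2-fold reduction. Without CSB KD 13 they were at -0.24, -0.38 and -0.25, and without CSB SD 16 at -0.0077, -0.12 and 0.0080. The proteases of the C1 complex are C1r and C1s: C1ra differed by -0.67 (-1.52 to 0.17), and C1s1 averaged 57.8 ± 39.2 in SD and 21.5 ± 7.98 in KD (-1.26). Masp2, a protease of the lectin route, averaged 18.0 ± 21.7 and 3.83 ± 3.72 (-1.69). None of the 3 passed, and liver is a major source of all of them; C1s1 was at 136 and Masp2 at 61.3 in their highest SD library. The 5 terminal genes (Hc, C8a, C8b, C8g and C9), parts of the pore-forming complex, all lay below 0 with a median of -1.22, and in SD their mean values were at most 28.8.

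C3 (chromosome 17, 57203970 to 57228136), the protein on which all complement routes converge, had the largest difference of the 27 microglial and complement genes named throughout. It ran from 308 through 576 to 1553 in SD and read 141, 298, 104, 232 and 143 in KD. Every KD library lay below every SD library, which held for 0.197% of all genes. CSB SD 6 (1473) and CSB SD 16 (1553) were more than 2-fold above the other SD libraries, which reached 669 at most. C3 averaged 826 ± 545 in SD and 184 ± 79.4 in KD, a difference of -2.0 (SE 0.60, 95% interval -3.22 to -0.78, 4.01-fold lower) with an unadjusted limma p of 0.00204 and an adjusted p of 0.984. The difference was -1.79 without CSB SD 6, -1.77 without CSB SD 16, and -1.38 when forebrain and liver levels were covariates. WT averaged 208 ± 70.0 (n = 4) on SD and 231 ± 201 (n = 4) on KD.

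C4b (chromosome 17, 34728380 to 34743882), a component cleaved before C3, ran from 1745 through 2775 to 6629 in SD and read 2024, 2036, 1748, 1751 and 1487 in KD. The groups overlapped at the lowest SD library, and CSB SD 16 stood alone at 6629. C4b differed by -0.68 (SE 0.29, 95% interval -1.26 to -0.09, adjusted p = 0.984), and by -0.44 without CSB SD 16. C4a is a near-identical neighbouring gene, so the value of C4b alone is uncertain. Cd59a, which blocks pore assembly, differed by -0.50 (-0.92 to -0.08).

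Among complement receptors, C5ar1, which senses C5a, ran from 18.9 through 25.4 to 39.8 in SD and read 21.7, 18.3, 16.7, 10.3 and 12.4 in KD. It differed by -0.75 (95% interval -1.49 to -0.01). C3ar1, which senses C3a, differed by -0.29 (-0.65 to 0.07). Itgam and Itgb2, the chains of complement receptor 3, differed by -0.06 (-0.45 to 0.34) and -0.41 (-0.88 to 0.06). All 6 receptor genes of the list lay below 0, 1 of them with an unadjusted p under 0.05.

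**Figure D3:**
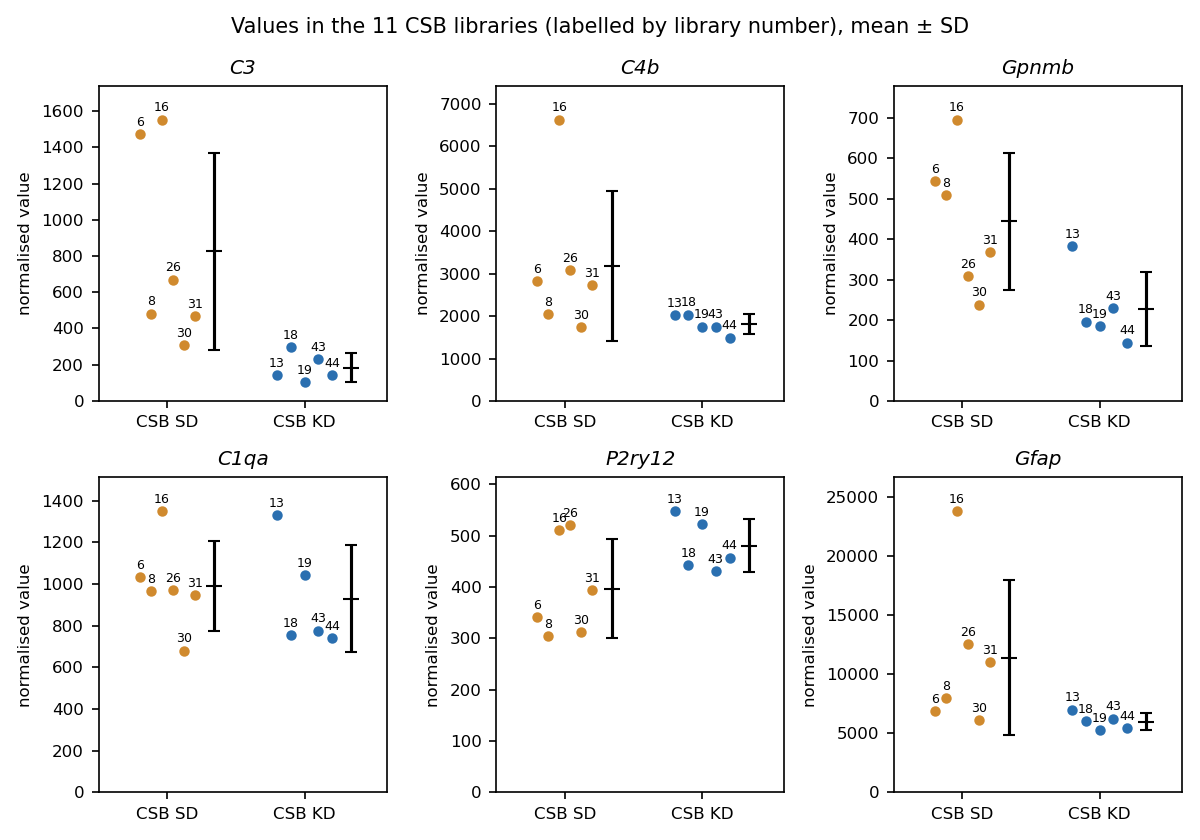
Normalised values (y axis, from 0) of 6 genes in the 6 CSB SD and 5 CSB KD libraries, each point labelled with its library number, and the group mean ± SD as black bars. C3 did not overlap between the diets, while C1qa did.

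The homeostatic microglia list was centred near 0, with a median of -0.04 over 24 genes, 13 below 0 and 11 above. For 23 of the 24 the interval excluded a 2-fold reduction. The level was 7.78 ± 0.25 in SD and 7.74 ± 0.09 in KD. P2ry12, the ADP receptor that steers microglial processes, ran from 305 through 367 to 520 in SD and read 547, 443, 522, 431 and 457 in KD. Its 4 lowest SD libraries lay below all KD libraries, and it differed by 0.30 (95% interval -0.08 to 0.69). Tmem119 differed by 0.02 (-0.35 to 0.39), the fractalkine receptor Cx3cr1 by -0.02 (-0.41 to 0.36), the survival receptor Csf1r by -0.06 (-0.44 to 0.32) and Aif1 by -0.05 (-0.56 to 0.46). The direction of these 4 turned when single libraries were left out or a covariate was added. Lower values at an unadjusted p under 0.05 were those of the ATP-degrading enzyme Entpd1 (-0.47) and the TGF-beta receptor Tgfbr2 (-0.29), while the crystallin Crybb1 was at 0.58 (-0.06 to 1.22).

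Pan-leukocyte and macrophage genes had a median of -0.12, with 22 of 24 below 0 and 1, the actin regulator Was (-0.47), lower at an unadjusted p under 0.05. Ptprc, the CD45 phosphatase, ran from 250 through 292 to 439 in SD and read 265, 232, 215, 208 and 226 in KD. Only CSB KD 13 reached the SD range, and the difference was -0.47 (95% interval -0.96 to 0.03). The perforin-like Mpeg1 differed by -0.38 (-0.78 to 0.02), the F4/80 receptor Adgre1 by -0.11 (-0.47 to 0.25; -0.25 without CSB KD 13) and the cortical actin protein Coro1a by 0.29 (-0.03 to 0.61). The median of this list was -0.25 without CSB KD 13 and -0.04 without CSB SD 16.

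The Fc gamma receptor list had a median of -0.15 with 4 of 5 genes below 0, with Fcgr1 and Fcgr3, which bind antibody, at -0.15 and -0.15, the inhibitory Fcgr2b at -0.16 and their common chain Fcer1g at -0.12. The fifth gene, Fcgr4, was at 0.06 (95% interval -0.71 to 0.84). Trem2, Tyrobp and Apoe signalling had a median of -0.10 (12 of 18 below 0), which was -0.01 without CSB SD 16 and -0.20 without CSB SD 30. Chemokine genes had one of -0.00 (6 of 12 below 0), with Ccl3 at -0.58 and Ccl9 at 0.77. Inflammasome and cytokine genes had a median of -0.14 (17 of 25 below 0), which was -0.06 without CSB KD 18 and -0.21 without CSB KD 13, with the pore protein Gsdmd at -0.55 and the adaptor Myd88 at -0.24; Tnf and Il6 did not reach the filter. Interferon-stimulated genes had a median of 0.04, with Ifi44 at 0.54 and Isg15 at 0.37, MHC class I genes one of -0.02 and MHC class II genes one of -0.10. Over the 163 tested genes of the 8 microglial lists, 124 lay below 0, 14 had a lower and 0 a higher value at an unadjusted p under 0.05, and limma called 0. For 134 of the 163 the interval excluded a 2-fold reduction.

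Microglial list levels varied together with the myelin level from library to library, and the complement level with the liver level. Across the 11 CSB libraries the activated microglia level had a Pearson r of 0.89 (Spearman rho 0.86) with the level of 20 myelin and oligodendrocyte genes, and r was 0.83 without the 2 libraries farthest from the median myelin level and 0.98 within the 6 SD libraries. The homeostatic level had r = 0.96 and the leukocyte level r = 0.93 with the same myelin level. The complement level had r = 0.94 (rho 0.87) with the level of the 22 liver genes, and 0.75 without CSB SD 6 and CSB SD 26. The complement list includes genes for which liver is a major source, such as C1s1 and Masp2, so this r may be partly built in. The remaining relations were weaker. C3 had r = 0.70 with the liver level, and 0.50 without CSB SD 6 and CSB SD 26. C4b and the astrocyte gene Gfap had r = 0.79 and 0.78 with the myelin level. Without CSB SD 30 and CSB SD 16 these were 0.57 and 0.61. All 7 relations computed were noticed in the data and are given as descriptions without p-values. The levels share the same libraries and normalisation. The myelin level itself was 11.57 ± 0.47 in SD and 11.47 ± 0.24 in KD. With the myelin level as a covariate the activated microglia median was -0.14, the complement median -0.40 and the homeostatic median 0.02. With the forebrain and liver covariates these were -0.15, -0.22 and -0.09, and of the alternatives this one brought the complement median closest to 0.

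**Figure D4:**
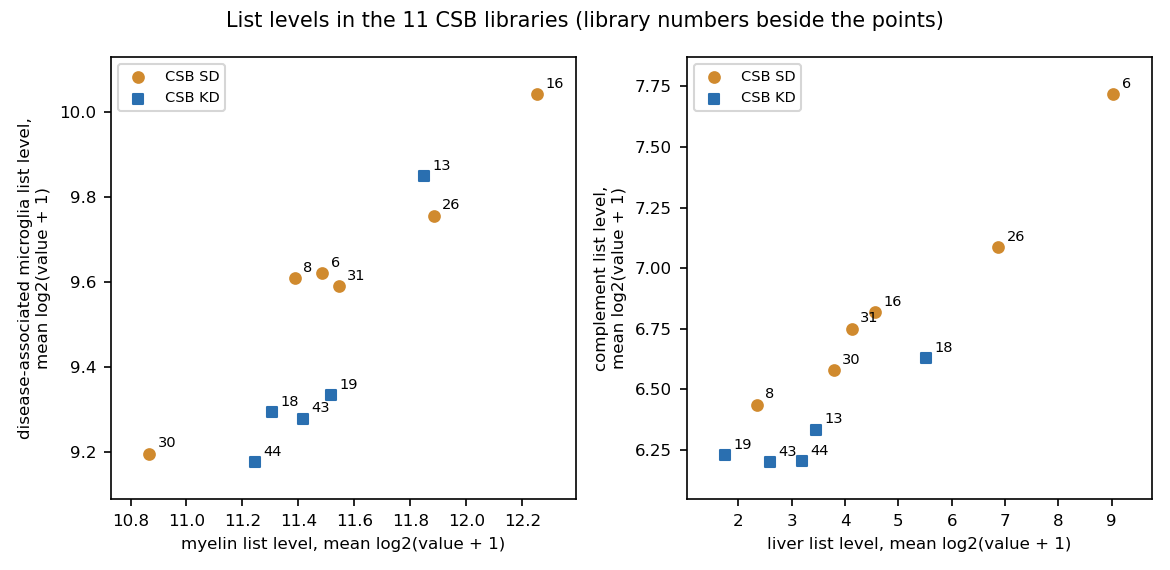
Left, the disease-associated microglia level against the myelin level, and right, the complement level against the liver level, in the 11 CSB libraries (SD circles, KD squares; axes in mean log2(value + 1), library numbers beside the points). Microglial levels were highest where myelin levels were highest (CSB SD 16), and complement levels where liver levels were highest (CSB SD 6).

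Other groups showed where the CSB diet values stood. Between CSB and WT on the standard diet, 29 genes (0.136%) were called. Among them were 9 of the 31 activated microglia genes, all higher in CSB, and 5 of the 34 complement genes. The medians of these lists were 0.66 and 0.83. The liver list had a median of 3.07 in the same comparison, and 14 of its 22 genes were higher at an unadjusted p under 0.05. Of all 21367 genes, 904 were. Liver markers summed to 167 to 356 in WT SD and 209 to 19580 in CSB SD. Between CSB and WT on the ketogenic diet, which uses other libraries, 1 gene (Gm6768, 0.00468%) was called. The activated microglia and complement medians were 0.20 and 0.04, and the liver median was 0.51. Without the library labelled WT KD 25, 10 genes (0.0468%) were called, Itgax among them at 2.06 (SE 0.38, adjusted p = 0.0195), and the medians were 0.25 and -0.05. Cst7 stood at 10.1 ± 3.24 in WT SD, 22.7 ± 20.5 in WT KD, 70.9 ± 39.5 in CSB SD and 46.1 ± 18.4 in CSB KD. Itgax stood at 26.8 ± 10.5, 44.2 ± 43.9, 145 ± 47.1 and 102 ± 49.4 in the same groups. Each of these comparisons shares libraries with the diet comparison in CSB, so they are set side by side only.

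In the diet comparisons of the other genotypes limma called 0 genes in WT (0%), 0 in INDY (0%) and 1 in DKO (0.00468%, Catspere1), with 2868 (13.4%), 989 (4.63%) and 1732 (8.11%) genes at an unadjusted p under 0.05; WT without WT KD 25 had 0 and 1583. The activated microglia median was 0.22 in WT, 0.09 there without WT KD 25, -0.12 in INDY and -0.04 in DKO. The complement median was 0.12 in WT, 0.07 there without WT KD 25, 0.11 in INDY and -0.06 in DKO, against -0.41 in CSB. The test of the difference in diet response called 0 genes for CSB minus WT (0%), 0 for CSB minus INDY, 0 for CSB minus DKO and 0 for CSB minus the mean of the 3, with 1369 (6.41%), 1122 (5.25%), 1280 (5.99%) and 631 (2.95%) genes at an unadjusted p under 0.05. Without WT KD 25, limma called 0 for CSB minus WT and 0 for CSB minus the mean of the 3, with 946 and 629 at an unadjusted p under 0.05. For C3 the diet response of CSB minus that mean was -1.90 (SE 0.71), for Masp2 -1.45, for Gpnmb -0.85, for Ptprc -0.66, for Itgax -0.63, for C4b -0.54, for Mpeg1 -0.52 and for Cst7 -0.48, none of which passed. These 8 genes were chosen by hand and all lay below 0 in the CSB diet comparison. That comparison is part of this difference, so their direction is partly built in. List medians of this difference were -0.20 (activated microglia), -0.42 (complement), -0.31 (leukocyte) and -0.03 (homeostatic). Those of the other microglial lists were -0.18 (Trem2, Tyrobp and Apoe signalling), -0.32 (Fc gamma receptor), -0.14 (inflammasome and cytokine) and 0.08 (chemokine). An alternative left out the 10 libraries of high forebrain level, none of them CSB. WT KD 7, 12 and 25 were among them, so WT KD 28 stood alone for WT KD. WT KD 12 also had the highest summed T and B lymphocyte and neutrophil markers of WT KD, at 10206. In the groups other than WT KD these sums reached at most 556. The summed leukocyte genes of WT KD 12, at 8953, were the highest of WT KD too. In this alternative 5 of the 8 gene values were smaller by more than 1.5 times: C3 -1.14, Gpnmb -0.49, Ptprc -0.23, Itgax -0.24 and Mpeg1 -0.25. The cause of these shifts was not tested. In the same alternative Masp2 was at -1.58, C4b at -0.49 and Cst7 at -0.33. With the first principal component of the residuals as a covariate, limma called 70 of 21367 genes for CSB minus WT, of which 3 were in a microglial list (Itgb2 at -1.59, Fcgr3 at -1.07 and Nckap1l at -1.0). The same covariate gave 72 calls for CSB minus DKO, of which 1 was in a microglial list, Cx3cl1, with a higher value (0.84). This component was computed from what remained after group means were removed. It therefore left each difference unchanged and lowered only the spread behind the p-values, so no conclusion is drawn from these calls.

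Beyond microglia, reactive astrocyte genes had a median of -0.34, with 19 of 22 below 0. Of the 22, 6 were lower at an unadjusted p under 0.05, against 1.81% of all genes. Gfap, the astrocyte filament protein, ran from 6144 through 9496 to 23826 in SD and read 7011, 6011, 5264, 6238 and 5447 in KD. The groups overlapped at the lower SD values and CSB SD 16 was highest. Gfap differed by -0.77 (95% interval -1.45 to -0.09, adjusted p = 0.984) and by -0.53 without CSB SD 16. The oncostatin M receptor Osmr (-0.53) and the small heat shock protein Hspb1 (-0.81) did not overlap between the diets. Over all genes, 0.197% lay lower in every KD library than in every SD library. The membrane protein Emp1 differed by -0.76. Astrocyte and Bergmann glia markers had a median of 0.03.

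All 18 granule cell genes and 15 of 16 Purkinje genes lay above 0, with medians of 0.42 and 0.36, and with 0.20 and 0.19 without CSB SD 16. All 23 choroid plexus genes lay below 0 (median -0.98, and -0.56 without CSB KD 13), as did all 22 liver genes (median -1.76, and -1.09 without CSB SD 6) and 11 of 12 meningeal genes (median -0.48, and -0.16 without CSB KD 13). Of the other neuronal lists, cerebellar interneuron genes had a median of 0.04, with 4 of 10 below 0, and all 13 brainstem and aminergic neuron genes lay below 0, with a median of -0.48 (-0.22 without CSB SD 16 and CSB KD 13). Slc6a2, the transporter of noradrenergic neurons, differed by -1.70, the collagen gene Col3a1 by -1.27 and the globin genes Hbb-bs and Hba-a1 by -1.02 and -0.86; reads of near-identical globin copies cannot be assigned with certainty. Nrgn, a forebrain gene, read 112 to 231 in SD and 354 to 705 in KD and differed by 1.63 (95% interval -0.16 to 3.42). That interval uses the spread of all 8 groups, which hold libraries of high forebrain level outside CSB. A limma fit of the 11 CSB libraries gave Nrgn an adjusted p of 0.022.

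Genes of ketone and fat metabolism were near 0. Ketone body transport and use had a median of -0.02 (7 of 13 below 0), with Oxct1, the mitochondrial enzyme that activates acetoacetate, at 0.12 (95% interval -0.06 to 0.30), Bdh1, which converts hydroxybutyrate, at 0.14 (-0.08 to 0.36), and Aacs, which activates acetoacetate in the cytosol, at 0.22. Fatty acid oxidation had a median of -0.01 (19 of 36 below 0). Its regulator Ppara ran from 60.4 through 79.2 to 110 in SD and read 46.4, 50.1, 44.3, 75.3 and 62.4 in KD, and differed by -0.57 (-0.99 to -0.15), while Cpt1a, the entry step of fat into mitochondria, was at -0.19 and Pdk4 at -0.25. Nuclear genes of oxidative phosphorylation had a median of 0.12 with 69 of 74 above 0, and 0.03 without CSB KD 13. Cytosolic ribosomal proteins had a median of 0.13 with 74 of 79 above 0, and -0.01 without CSB KD 13, which had a ribosomal level of 11.92 against 11.06 to 11.61 in the other KD libraries.

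Clock genes had a median of 0.18 with 19 of 23 above 0, and 3 (Dbp, Tef and Cry2) higher at an unadjusted p under 0.05, which 1.61% of all genes met. Dbp, a clock output transcription factor, ran from 621 through 665 to 880 in SD and read 823, 949, 845, 1225 and 1036 in KD. The groups overlapped in the upper SD values, and Dbp differed by 0.44 (95% interval 0.18 to 0.69, adjusted p = 0.984). Tef was at 0.21, Cry2 at 0.19 and Hlf at 0.38. The labels give no time of day. Immediate early genes had a median of 0.24, with Egr4 at 1.14 and Fosb at 0.81.

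**Figure D5:**
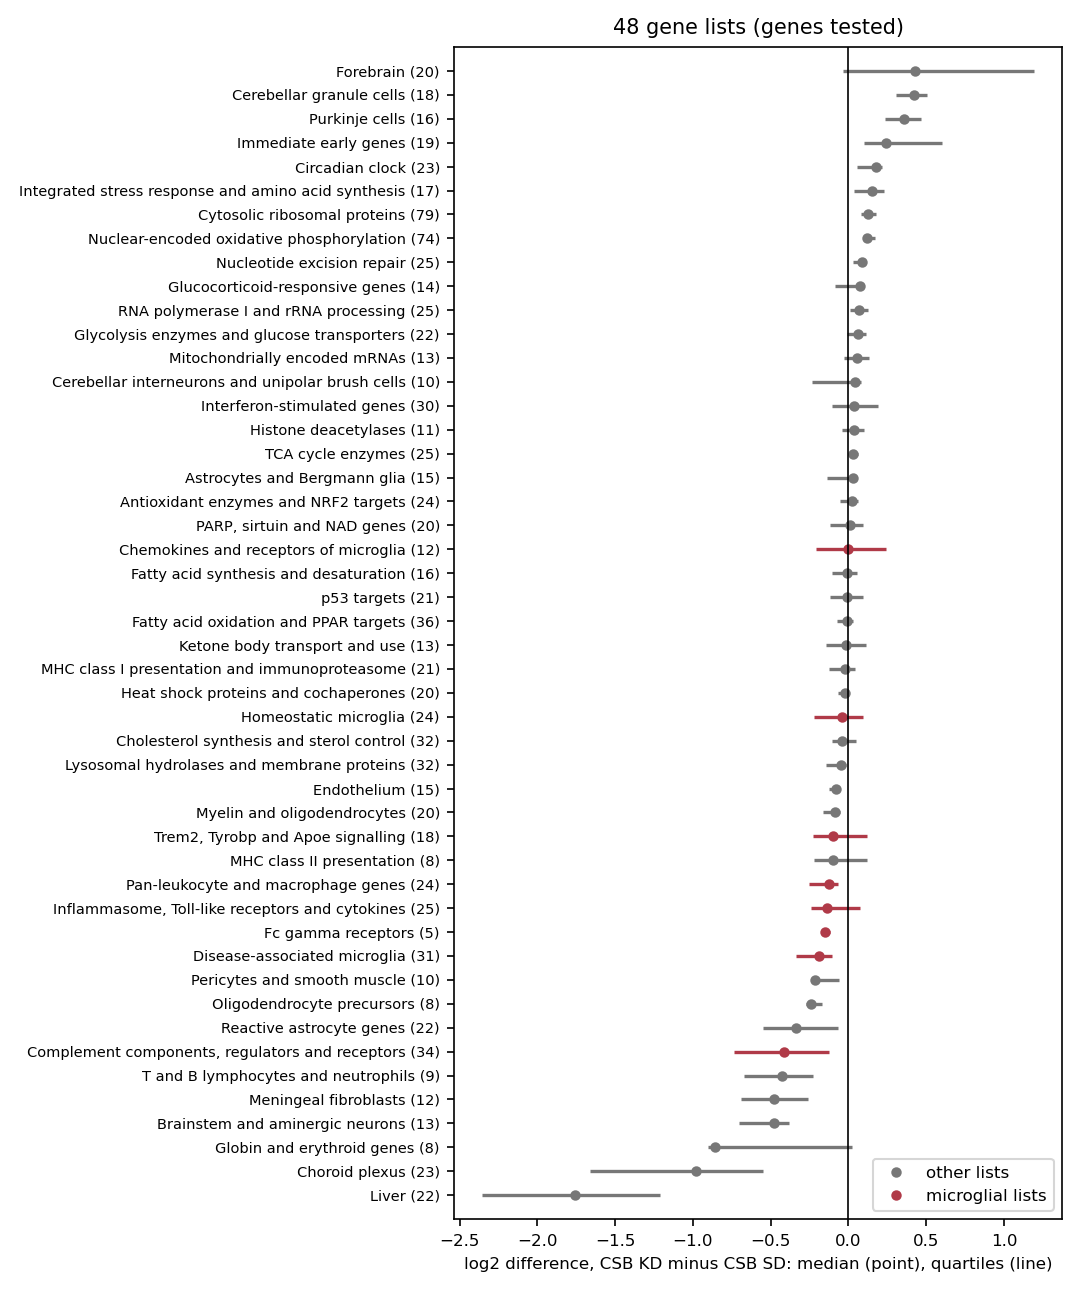
Median (point) and quartiles (line) of the log2 difference of CSB KD minus CSB SD (x axis) over the tested genes of 48 lists (y axis, number of genes in brackets), microglial lists in red. The medians ran from -1.76 for liver to 0.43 for forebrain genes, with complement at -0.41 and disease-associated microglia at -0.19.

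Among all genes, the 10 of smallest p in each direction are given because fewer than 10 were called, and none of them passed. Kri1 (chromosome 9, 21273457 to 21287969), a factor of ribosome assembly, had the smallest p. It ran from 326 through 384 to 393 in SD and read 540, 535, 561, 582 and 524 in KD, so the groups did not overlap. Kri1 differed by 0.55 (SE 0.11, 95% interval 0.32 to 0.78), with an unadjusted limma p of 2.01e-05 and an adjusted p of 0.43. Every KD library lay above every SD library for 44 genes (0.206%). Among the next 9 higher genes, Sgsm3 (0.36), Pnrc1 (0.37), Cenpv (0.35) and Rfxap (0.45) did not overlap either. Dbp (0.44), Uck2 (0.32), Igsf21 (0.45), the splicing protein gene Snrpd3 (0.48) and the folate enzyme gene Mthfd1l (0.47) completed the 10. In the other direction stood the collagen crosslinking enzyme Loxl2 (-0.62), the collagens Col5a2 (-1.0) and Col14a1 (-1.27), the inositol transporter Slc5a3 (-0.42), the intramembrane protease Sppl2a (-0.24) and Trim7 (-0.67). C3 (-2.0), the metal transporter Slc39a14 (-0.41), the growth hormone receptor Ghr (-0.51) and Hspb1 (-0.81) were the rest. Their adjusted p was 0.984 in each case. Col14a1 read 46.8 to 66.9 in SD and 13.3, 38.8, 27.4, 30.7 and 14.7 in KD, lowest in CSB KD 13.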

How the data were processed

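Per the labels' protocols, cerebellar RNA was isolated by trizol-chloroform and made into DNBseq libraries after removal of ribosomal RNA. The deposited values are of the unit signal: estimated counts per gene after normalisation by the authors. Bowtie2, Salmon, DESeq2 and the build mm9 are named, per the submitters' processing notes, with no version or order. Of 54331 gene IDs, 53444 matched GENCODE M21 on GRCm38 with their version and 54097 without. Symbols and positions come from there and not from the authors' build. The test covered the 21367 genes that reached 10 in 4 or more of the 40 libraries. All 8 groups stood in 1 limma fit (limma 3.58.1, R 4.3.3) of log2(value + 1) with trended, robust variances and no covariate, and p-values are two-sided, adjusted by Benjamini-Hochberg within each comparison. A pseudocount of 1 understates the change of low genes. Intervals are 95% intervals of the fit. Depth is unknown, so no counting interval was computed.

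The members, lists, rule and tests were chosen with earlier results of these data known. Named genes were the genotype checks, 27 microglial and complement genes, the 10 of smallest p per direction (mean of at least 20, no clone names) and up to 4 further members of a list by smallest p; a few genes are not reported here. C1ra, Fcgr4, Nckap1l and Cx3cl1 were named after their values were seen. Each list gets counts and a median beside those of all genes and no test of its own. The fit was run on simulated data with independent noise for each gene. Variation that genes of a library share was not simulated, so no conclusion about these data is drawn from it. Alternatives were pseudocounts of 0.5 and 5, other filters, scaling and variances, covariates, a fit of the 11 CSB libraries, and leaving out each library. Covariates of myelin and granule cell level and leaving out pairs of libraries were chosen after seeing the data. Figures used matplotlib 3.10.9 in Python 3.11.15.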

Additional observations from a re-analysis of the deposited data

Results flagged for a closer look

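For 48 list levels, 27 genes and 4 library measures in both CSB groups (158 sets of values), the gap of the outermost library to its nearest neighbour was divided by the range of the group, and 13 exceeded Dixon's 95% value, where chance flags about 1 in 20 groups (7.9). CSB KD 13 was the library far from its group in 10 of the 13. Its disease-associated microglia level was 9.85 where the next KD library was at 9.33, its leukocyte level 7.61 against 7.29, its level of mitochondrially encoded mRNAs 14.89 against 14.38 and its nucleotide excision repair level 9.55 against 9.47. In the same library C3ar1 read 92.9 (next 68.4), Clec7a 353 (184), Cd68 318 (190), Tyrobp 755 (411) and Lyz2 1267 (783), and mitochondrial RNA held 14.2% of the total (9.44%). CSB SD 16 stood apart for C4b, at 6629 where the next SD library read 3088, and for Cst7, at 147 against 71.4. The cytosolic ribosomal protein level of CSB SD 26 was 11.49 against 11.24.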

How the results depend on the processing

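The count of genes called between CSB KD and CSB SD was 0 in 52 of 55 alternatives. It was 1 without INDY KD 20 (Kri1, adjusted p = 0.047, against up to 1.00 in other alternatives), so leaving out single libraries gave 0 to 1, 2 in a fit of the 11 CSB libraries (Nrgn and Gm28052) and 1 with the granule cell level as covariate (Sgsm3). None of these is in a microglial list. For diet response differences, the first residual principal component as covariate gave 70 calls for CSB minus WT and 72 for CSB minus DKO. That component changes only the spread and no difference. Leaving out the 10 libraries whose forebrain level exceeded 6.5 left WT KD 28 alone in its group, so no count is given for it. The count was 1 for CSB minus INDY with the granule cell level as covariate. It was 0 to 2 for CSB minus DKO over single libraries left out (2 without DKO KD 3). Genes with an unadjusted p under 0.05 in the diet comparison numbered 434 to 1426. The activated microglia median stayed between -0.30 and -0.12, the complement median between -0.51 and -0.22, the leukocyte median between -0.25 and -0.04, and the homeostatic median ran from -0.15 to 0.10. Of 118 named genes, 109 kept their direction. For many of the 55 alternatives this outcome, and that of the list medians, was fixed in advance. With 1 mean per group, leaving out libraries of other genotypes cannot change a difference within CSB. Nor can other variances, the residual component or the fit of the 11 CSB libraries. Leaving out single libraries gave -0.097 to 0.12 for Ercc6, -0.25 to 0.0080 for C1qc, -0.15 to 0.079 for Itgam, -0.16 to 0.044 for Csf1r, -0.15 to 0.084 for Cx3cr1, -0.21 to 0.038 for Aif1, -0.27 to 0.0004 for Fcer1g and -0.092 to 0.12 for Tmem119. The granule covariate turned C1qc (0.016), Itgam (0.067), Csf1r (0.067), Cx3cr1 (0.15) and Aif1 (0.12), and the myelin covariate Cx3cr1 (0.031) and Aif1 (0.027). Forebrain and liver covariates turned Gm6768 (-0.016) and Tmem119 (-0.057), and the choroid plexus covariate Gm6768 (-0.37). Without CSB SD 16 and CSB KD 13 Cx3cr1 was at 0.064, and without CSB SD 6 and CSB KD 13 Tmem119 was at -0.024. The cause of these changes was not tested. No paired analysis was possible because library numbers are not shared between the groups. With 5 against 6 libraries and unknown depth, the spread between libraries limits the precision.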
